A study of Mus musculus with 6 samples.

Results

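The proteasome subunit genes of mouse were described in lateral plate mesenchyme of the embryonic thoracic wall with and without the transcription factor Ebf3. Members were chosen by gene symbol alone, as every row of the count table named Psma, Psmb, Psmc, Psmd, Psme, Psmf or Psmg followed by a number, and 48 of 49585 rows met this rule. They comprise 8 Psma, 11 Psmb, 6 Psmc, 14 Psmd, 4 Psme, 1 Psmf and 4 Psmg genes, and 43 of them had at least 10 counts in at least 3 libraries and were tested. RNA-seq was performed on 3 Prx1-Cre Ebf3-KO samples (Prx1-Cre Ebf3 flox/flox) and 3 Prx1-Cre Ebf3 heterozygous samples (Prx1-Cre Ebf3 flox/+), all embryos at E10.5 whose strain is C57BL/6 in the labels and C57BL/6NCrSlc in the study's methods. Both genotypes carried Prx1-Cre, which is active in lateral plate mesenchyme, and a R26RTdtomato reporter that the Cre switches on, and the sorted cells were the reporter-positive ones of the thoracic wall. The heterozygous controls therefore also carry Cre and 1 floxed allele. The labels do not say how many embryos gave each sample or whether replicates came from separate litters, so p-values measure only the spread between these samples, which may be technical.

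The proteasome is the protease that degrades ubiquitin-tagged proteins in the cytoplasm and nucleus. Its core particle is a barrel of stacked alpha and beta rings with the proteolytic sites inside, and its regulatory particle, a base with a ring of ATPases plus a lid, binds tagged proteins, removes the ubiquitin, unfolds them and feeds them into the barrel. Transcription of the subunit genes is known to be raised together by the Nrf1 factor (Nfe2l1) when proteasome activity is limiting, and interferon exchanges the catalytic beta subunits for immunoproteasome forms.

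The deposited counts came to 2088091 to 3525565 per KO library and 2392910 to 3256007 per heterozygous library, and 10891 genes were tested. The 48 genes took 0.500% to 0.646% of the counts in KO libraries and 0.519% to 0.611% in heterozygous libraries. Ebf3 had 179, 87 and 220 counts in KO libraries, against 308, 238 and 248 in heterozygous libraries, and every KO library lay below every heterozygous one in CPM. Its fold change was -0.74 on the log2 scale with an SE of 0.18 (unadjusted p = 0.0016, adjusted p = 1.00 by edgeR with Benjamini-Hochberg adjustment). The transcript was still counted in all KO libraries. In the study's floxed allele only the exons for the DNA-binding domain lie between loxP sites. Counts over the whole gene can include reads from its other exons, so they do not measure how complete the deletion was. CPM are the counts of a gene over the TMM-scaled total of its library, times 1e6. All 10 genes taken as markers of lateral plate mesenchyme were tested in these libraries, though not all are specific to it. Pdgfra and Col1a2 were the highest of them in KO replicate 1, at 902 and 870 CPM. The 10 genes had a summed level of 1996 to 2665 CPM in KO and 2325 to 2648 CPM in heterozygous libraries. The marker of smallest p among these was Foxf1, a forkhead factor of lateral plate mesoderm, with 21, 25 and 64 counts in KO libraries, against 22, 17 and 15 in heterozygous libraries (log2 fold change 0.96, SE 0.34, unadjusted p = 0.016 by edgeR), without overlap in CPM. Hand2, the only other marker of this list under the unadjusted threshold, stood at -0.42 log2 units (SE 0.18, unadjusted p = 0.045 by edgeR). Of all genes tested, 1.38% had an unadjusted p up to 0.05 by edgeR with a higher mean in KO, and 0.771% with a lower one. In 3.95% of all genes every KO library lay above every heterozygous one in CPM. Endothelial markers summed to 65.9 to 212 CPM in KO and 53.9 to 164 CPM in heterozygous libraries, epithelial markers to 234 to 276 CPM and 238 to 376 CPM, and none of the 8 leukocyte markers reached the count minimum. The endothelial gene of smallest p was Pecam1, with 35, 11 and 85 counts in KO libraries, against 19, 11 and 48 in heterozygous libraries, and the epithelial one was Krt8, with 358, 245 and 491 counts in KO libraries, against 697, 342 and 297 in heterozygous libraries, both with overlap. In bulk RNA of sorted cells, fewer cells of a type and less RNA per cell cannot be told apart.

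No proteasome gene passed the test between genotypes. At an adjusted p under 0.05 the call share was 0% over the 10891 genes and 0 of the 43 tested members, and every adjusted p among the members rounded to 1.00. At an unadjusted p up to 0.05, 1 member had a higher mean in KO libraries (Psma2), beside 1.38% of all genes tested, and 0 members had a lower one, beside 0.771%. Over all genes, 234 had an unadjusted p up to 0.05 by edgeR, against 125 by DESeq2 and 250 by limma-voom, and neither of these tools called a gene after adjustment.

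For most members the data left room for only a modest genotype difference. The 95% interval of the fold change lay within 1 log2 unit of 0 for 41 of 43 members, beside 80.9% of all genes tested. The lowest mean level was 10.6 CPM among members and 2.50 CPM among all genes, with a median SE of 0.17 and 0.21. Genes were not matched to the members by level here. The interval lay within 1 log2 unit of 0 for all 14 core and all 20 regulatory members tested. The exceptions were the assembly chaperones Psmg2 (log2 fold change 0.51, SE 0.24, 282 counts over all libraries) and Psmg3 (0.15, SE 0.40, 165 counts). Psmd10, with 256 counts, was not an exception. Core members are the Psma and Psmb genes, and regulatory members the Psmc and Psmd genes. The regulatory set therefore includes the base chaperones Psmd5, Psmd9 and Psmd10, while the core chaperones Psmg1 to Psmg4 are in neither set. The median log2 fold change was 0.13 over the core members (from -0.16 to 0.38), 0.05 over the regulatory members (from -0.23 for Psmd9 to 0.22 for Psmd5) and 0.00 over all genes tested. These medians moved with single libraries: leaving out KO replicate 1 gave 0.29 for the core and 0.14 for the regulatory members, leaving out KO replicate 2 gave 0.04 and -0.10, leaving out heterozygous replicate 1 gave 0.04 and -0.04, and leaving out heterozygous replicate 2 gave 0.24 and 0.06. The mean was higher in KO for 11 of 14 core and 12 of 20 regulatory members, beside 50.2% of all genes, and these counts were not tested because the members share libraries. By principal transcript length, the median over all tested genes was 0.08 under 1500 bases, 0.03 from 1500 to 3000 and -0.03 above. Core members had 0.12 (11 genes) and 0.21 (3 genes) in the shorter classes. Regulatory members had 0.06 (5 genes), 0.05 (13 genes) and 0.03 (2 genes). The part of length in these medians was not tested.

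**Figure D1:**
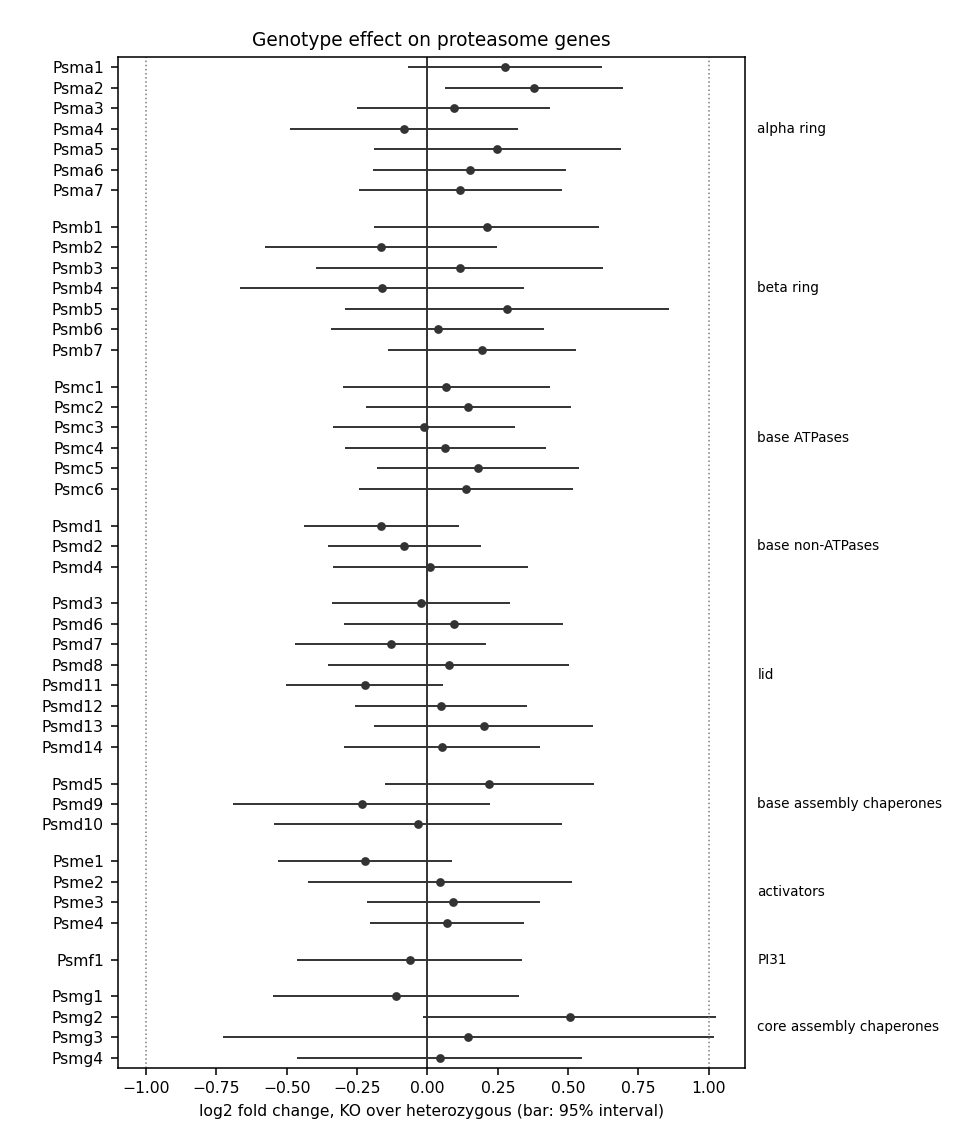
Log2 fold change of each tested proteasome gene, KO over heterozygous (x axis, log2 units), by role (rows); points are edgeR estimates, bars their 95% intervals from 3 against 3 libraries, and dotted lines mark 1 log2 unit. Of 43 intervals, only that of Psma2 lies wholly on one side of 0, and those of Psmg2 and Psmg3 reach past 1.

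The alpha ring closes the ends of the core barrel and gates entry of the substrate. Psma2, an alpha ring subunit (chromosome 13, bases 14613241 to 14625671, plus strand), had 274, 289 and 472 counts in KO libraries, against 295, 228 and 264 in heterozygous libraries. Scaled for depth these were 113, 143 and 130 CPM in KO libraries, against 90.6, 94.5 and 112 CPM in heterozygous libraries. Every KO library lay above every heterozygous library, by a margin of under 1 CPM between the nearest pair. On the log2 scale the fold change was 0.38 with an SE of 0.14 (unadjusted p = 0.023, adjusted p = 1.00 by edgeR), and the unadjusted p passed 0.05 in 4 of the 6 fits that left out 1 library. Those were the fits without KO replicate 2, KO replicate 3, heterozygous replicate 1 or heterozygous replicate 2, in which it reached at most 0.093.

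The remaining alpha subunits overlapped between genotypes. Psma7, the alpha subunit that is exchanged for Psma8 in testis, had 431, 504 and 940 counts in KO libraries, against 614, 560 and 503 in heterozygous libraries. It averaged 229 ± 44.4 CPM in KO and 212 ± 21.8 CPM in heterozygous libraries (SD, n = 3 each). Over the 7 alpha genes the median log2 fold change was 0.15, with Psma4 at -0.08 at the low end.

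The beta ring holds the proteolytic sites, which sit on Psmb5 (chymotrypsin-like), Psmb6 (caspase-like) and Psmb7 (trypsin-like). Psmb5 had 73, 111 and 180 counts in KO libraries, against 82, 106 and 100 in heterozygous libraries, which were 30.2, 55.0 and 49.6 CPM in KO libraries, against 25.2, 43.9 and 42.6 CPM in heterozygous libraries. Its log2 fold change of 0.28 was the largest of the beta ring and close to its SE of 0.26 (unadjusted p = 0.302 by edgeR). Psmb6 had 370, 468 and 692 counts in KO libraries, against 542, 523 and 418 in heterozygous libraries, and the genotypes overlapped, as they did for Psmb5.

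Psmb7 had 238, 274 and 453 counts in KO libraries, against 309, 278 and 245 in heterozygous libraries. Part of its exon sequence (11.8% of its exon bases) lies opposite Nek6, a gene with 704 counts over the 6 libraries, and since the sources do not say whether counting used strand, some reads there could belong to either gene. Psmb1, a non-catalytic beta subunit and the core gene with the highest deposited RPKM, had 328, 390 and 699 counts in KO libraries, against 395, 428 and 360 in heterozygous libraries. Its genotypes overlapped too, and over the 7 beta genes the median log2 fold change was 0.11.

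The subunits that replace these in immune, thymic or germ cells were at or near 0. Psmb9, the immunoproteasome counterpart of Psmb6, had 0 counts in all 6 libraries, which allows a level of up to 0.186 CPM of the unscaled totals (3 counts over all libraries). Psmb8, the counterpart of Psmb5, had 1, 0 and 0 counts in KO libraries and 0, 0 and 0 in heterozygous libraries. Psmb10, the counterpart of Psmb7, had 3, 6 and 4 counts in KO libraries, against 0, 2 and 2 in heterozygous libraries.

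Summed over the libraries, Psmb10 came to 1.62 CPM of the unscaled total in KO libraries (exact 95% binomial interval 0.862 to 2.77) and 0.495 CPM in heterozygous libraries (0.135 to 1.27), with intervals that cover counting error only. Psmb11, the beta subunit of thymic cortical epithelium, had 4, 0 and 2 counts in KO libraries, against 1, 0 and 0 in heterozygous libraries. Psma8, the testis alpha subunit, had 1, 0 and 4 counts in KO libraries and 0, 0 and 0 in heterozygous libraries. All 5 genes were below the count minimum and were not tested. For Psmb10 every KO library lay above every heterozygous one, at 1.24, 2.97 and 1.10 CPM in KO libraries, against 0, 0.829 and 0.852 CPM in heterozygous libraries. These values rest on 0 to 6 counts per library, and the share of genes at such counts without overlap was not determined. The leukocyte markers, the cells in which the immune forms are constitutive, summed to 0.496 to 9.09 CPM in KO and 1.66 to 4.68 CPM in heterozygous libraries, and 2 of 4 germ cell markers had no count in any library. The others were Ddx4, with 3, 0 and 2 counts in KO libraries, against 8, 4 and 0 in heterozygous libraries, and Sycp3. Sycp3 had 0, 0 and 0 counts in KO libraries, against 0, 2 and 0 in heterozygous libraries.

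Antigen presentation genes that accompany the immune subunits were also low where they are specific to that pathway. B2m, the light chain of class I molecules, had 26, 7 and 41 counts in KO libraries, against 21, 12 and 20 in heterozygous libraries, and Tap1, a subunit of the peptide transporter, had 2, 0 and 4 counts in KO libraries, against 10, 5 and 2 in heterozygous libraries. Of 21 such genes 14 were tested, none passed adjustment and 1 had an unadjusted p up to 0.05, higher in KO, as for 1.38% of all genes. This was Ifnar2, a chain of the type I interferon receptor, with 52, 40 and 76 counts in KO libraries, against 53, 31 and 36 in heterozygous libraries (log2 fold change 0.48, SE 0.22, unadjusted p = 0.048 by edgeR). Its unadjusted p was above 0.05 in every fit that left out 1 library (0.055 to 0.137), with the replicate block (0.058) and by DESeq2 (0.121).

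The base of the regulatory particle is built on 6 ATPases that unfold the substrate. Psmc5, the ATPase with the largest change, had 341, 418 and 563 counts in KO libraries, against 431, 377 and 365 in heterozygous libraries. Its log2 fold change of 0.18 (SE 0.16, unadjusted p = 0.296 by edgeR) became -0.0027 without KO replicate 2, so 1 library set its direction. Psmc1, the ATPase of highest deposited RPKM, had 425, 550 and 803 counts in KO libraries, against 629, 519 and 542 in heterozygous libraries. All 6 ATPases overlapped between genotypes, with a median log2 fold change of 0.10.

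The non-ATPase base subunits Psmd1 and Psmd2 are large scaffolds, and Psmd4 is a ubiquitin receptor. Psmd1 had 705, 687 and 1125 counts in KO libraries, against 1129, 863 and 823 in heterozygous libraries. These were 291, 341 and 310 CPM in KO libraries, against 347, 358 and 350 CPM in heterozygous libraries, and no KO library reached the lowest heterozygous one. The change came to -0.16 log2 units with an SE of 0.12 (unadjusted p = 0.216 by edgeR). Psmd2 had 879, 852 and 1382 counts in KO libraries, against 1322, 1021 and 952 in heterozygous libraries, and its genotypes overlapped.

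The lid removes ubiquitin from the substrate through Psmd14, its deubiquitinase. Psmd11, the lid subunit with the largest change, had 244, 234 and 423 counts in KO libraries, against 421, 323 and 297 in heterozygous libraries. In CPM these were 101, 116 and 117 in KO libraries, against 129, 134 and 126 in heterozygous libraries, again without overlap, and the change came to -0.22 log2 units with an SE of 0.13 (unadjusted p = 0.104 by edgeR). Psmd7, the partner of Psmd14 in the deubiquitinase module, had 476, 554 and 815 counts in KO libraries, against 729, 646 and 634 in heterozygous libraries, with overlap. All 8 lid genes together had a median log2 fold change of 0.05.

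Across the 43 tested members the genotypes were free of overlap in few genes. Psma2 and Psmg2 lay above in every KO library, which is 4.65% of the members beside 3.95% of all genes tested. Psmd1 and Psmd11, both in the regulatory particle, lay below in every KO library, again 4.65% of the members beside 3.51% of all genes. These shares are near the background, and an exact permutation test of 3 against 3 libraries cannot give a p under 0.1.

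Psmd5, Psmd9 and Psmd10 are chaperones that help to assemble the base and are absent from the finished particle. Psmd5 had 143, 150 and 302 counts in KO libraries, against 172, 163 and 157 in heterozygous libraries. Psmd9 had 45, 54 and 97 counts in KO libraries, against 86, 73 and 67 in heterozygous libraries, and its log2 fold change of -0.23 (SE 0.21, unadjusted p = 0.284 by edgeR) was the lowest of the regulatory members. Both overlapped between genotypes. Part of the Psmd9 exons (25.5% of their bases) lies opposite the non-coding gene Gm26745, which had 1 count.

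Psmg1 to Psmg4 form chaperone pairs that help to build the alpha ring and are no part of the finished core. Psmg2 had 44, 44 and 77 counts in KO libraries, against 57, 32 and 28 in heterozygous libraries, or 18.2, 21.8 and 21.2 CPM in KO libraries, against 17.5, 13.3 and 11.9 CPM in heterozygous libraries. Its log2 fold change of 0.51 was the largest of all members, with an SE of 0.24 (unadjusted p = 0.056 by edgeR), and the heterozygous library nearest to KO was replicate 1. Psmg4 had 52, 61 and 117 counts in KO libraries, against 70, 78 and 67 in heterozygous libraries, with overlap. Psmg1, which pairs with Psmg2, had a log2 fold change of -0.11.

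The activators are caps that open the core without ubiquitin. Psme1 and Psme2 form the interferon-inducible cap, and Psme1 had 207, 178 and 375 counts in KO libraries, against 314, 290 and 254 in heterozygous libraries. Its change came to -0.22 log2 units with an SE of 0.14 (unadjusted p = 0.143 by edgeR) and the genotypes overlapped in CPM, while its partner Psme2 stood at 0.04 log2 units. Psmf1, a proteasome inhibitor in vitro, had 63, 53 and 104 counts in KO libraries, against 98, 69 and 61 in heterozygous libraries, with a change of -0.06 log2 units, an SE of 0.18 and overlap (unadjusted p = 0.736 by edgeR).

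**Figure D2:**
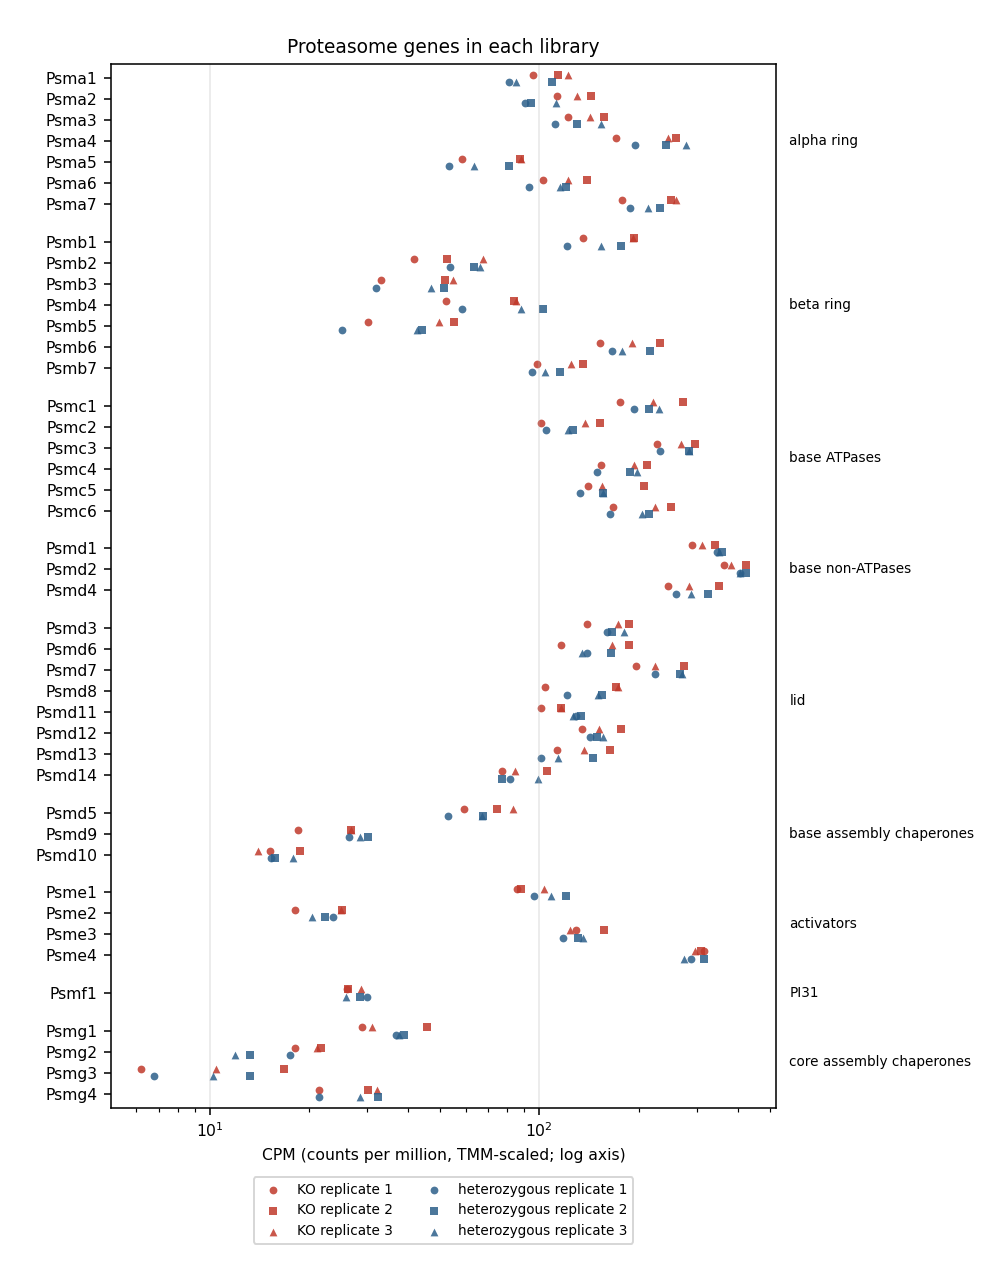
CPM of each tested proteasome gene (x axis, log scale) in each library, by role (rows); red marks are the 3 KO and blue marks the 3 heterozygous libraries, with the replicate as shape. In most rows the circles of replicate 1 are the leftmost marks of their colour, and the colours mix.

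Subunits of the rings are present in equal copies in the finished complex, but their transcripts were not at equal levels. Divided by the length of the principal transcript, the level ran from 39.2 CPM per kilobase (Psma2) to 241 CPM per kilobase (Psma7) over the 14 core genes, a 6.15-fold range with a median of 75.4. The 6 ATPases spanned a 2.34-fold range, from 69.5 CPM per kilobase (Psmc2) to 162 CPM per kilobase (Psmc3). The assembly chaperones of the base were lower than any other regulatory member, between 10.1 and 15.3 CPM per kilobase, and Psmf1 was the lowest of all tested members at 7.25.

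The members of highest level lay close together. Psma7 averaged 251 ± 48.6 CPM per kilobase in KO and 232 ± 23.9 in heterozygous libraries (SD, n = 3 each). Psmb6 averaged 240 ± 49.6 CPM per kilobase in KO and 234 ± 33.0 in heterozygous libraries, and Psmd4 averaged 220 ± 39.5 in KO and 219 ± 24.7 in heterozygous libraries, so the 3 genes differed by less than their SD. That SD is a spread between libraries, which the 3 genes share. In every library Psmd4 was below Psma7 and Psmb6 on this scale, while the order of Psma7 and Psmb6 changed between libraries. The order and the ranges also depend on the length used. In the deposited RPKM, whose lengths differ, Psmb1 was the highest core gene at a mean of 38.3 and Psmd7 the highest regulatory gene at 37.0, and Psma2 was the highest alpha gene in place of the lowest. In RPKM the 6 ATPases spanned a 5.89-fold range, and the 7 alpha genes a 2.49-fold range in place of 6.15-fold.

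**Figure D3:**
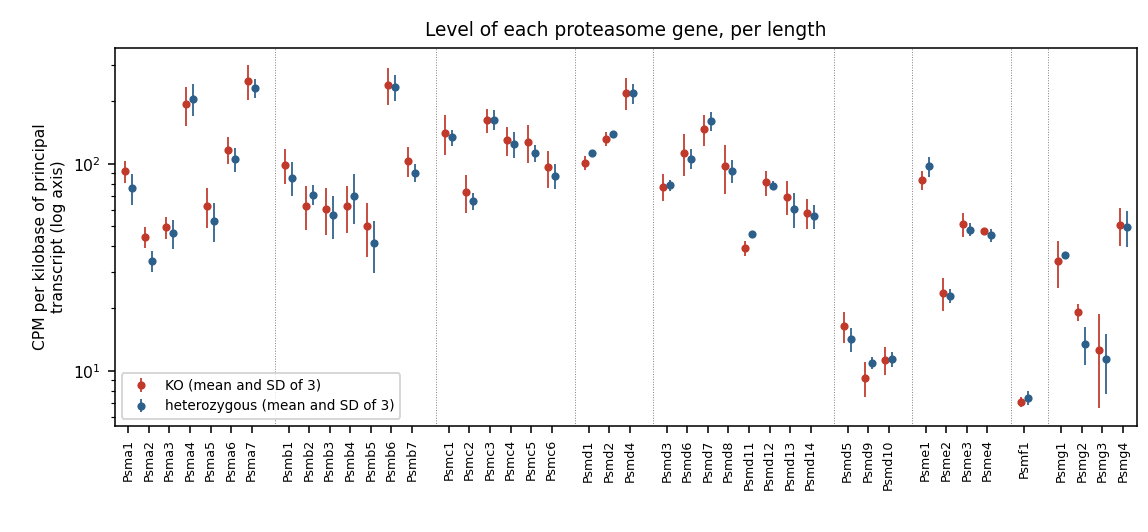
Level of each tested proteasome gene in CPM per kilobase of principal transcript (y axis, log scale), as mean and SD of 3 KO (red) and 3 heterozygous (blue) libraries; dotted lines part the roles. Over all libraries core and ATPase genes average between 39.2 and 241, chaperones of the base and Psmf1 below 20, and single libraries of the genotypes overlap in all genes but Psma2, Psmg2, Psmd1 and Psmd11.

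The members differed together between libraries of the same genotype. Of the 43 tested members, 38 (88.4%) had their lowest CPM in KO replicate 1 or in heterozygous replicate 1, beside 34.5% of all genes tested. These were the lowest libraries for all 14 core genes, all 6 ATPases and 18 of 20 regulatory genes. The 5 exceptions were Psmd10, Psmd14, Psme4, Psmf1 and Psmg2. Both libraries were the 2 lowest of the 6 for 27 members (62.8%), beside 14.5% of all genes.

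As a deviation of log2 CPM from the mean over 6 libraries, the median core gene was at -0.28, 0.25 and 0.23 in KO libraries and at -0.30, 0.14 and 0.01 in heterozygous libraries. The median regulatory gene was at -0.24, 0.23 and 0.03 in KO libraries and at -0.13, 0.09 and 0.07 in heterozygous libraries. The median of all genes was within 0.03 of 0 in every library. The spread between libraries of 1 genotype was larger than the difference between genotypes in both particles. With scaling by library size alone 37 of 43 members were lowest in replicate 1 of either genotype, and neither of these libraries was the shallowest of its genotype, at 2412856 counts in KO and 3256007 in heterozygous.

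**Figure D4:**
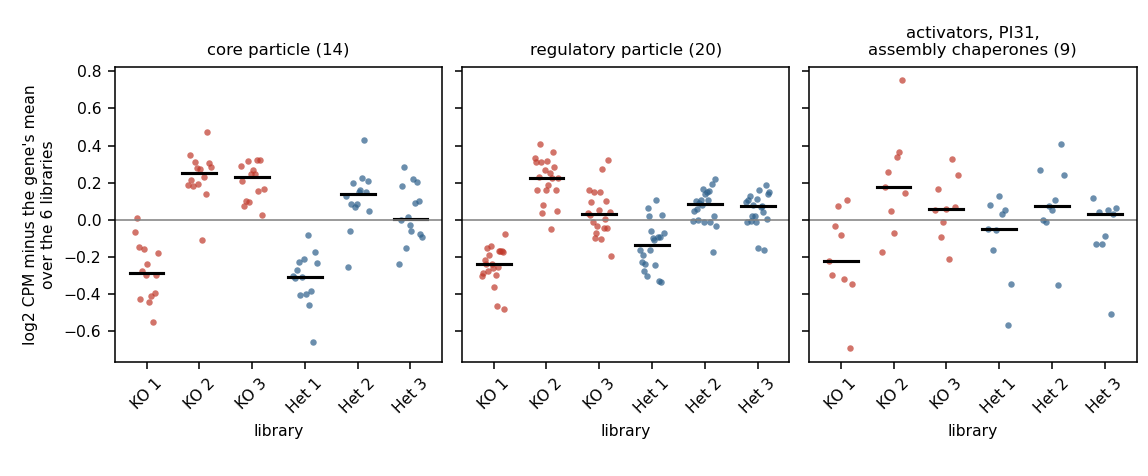
Log2 CPM of each tested proteasome gene minus its mean over the 6 libraries (y axis, log2 units) in each library (x axis; KO red, heterozygous blue), with the median as a black bar. Core genes sit at a median of -0.28 in KO replicate 1 and -0.30 in heterozygous replicate 1 and at or above 0 in the other 4 libraries.

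Transcript length moved with this pattern. Over the 1378 tested genes with a principal transcript under 1500 bases, the median deviation was -0.20, 0.19 and 0.16 in KO libraries and -0.17, 0.10 and 0.00 in heterozygous libraries. The 22 members of that length had -0.29, 0.25 and 0.15 in KO libraries and -0.23, 0.13 and 0.02 in heterozygous libraries. Over the 5741 genes above 3000 bases these libraries were the high ones, at 0.09, -0.07 and -0.04 in KO libraries and 0.07, -0.03 and 0.02 in heterozygous libraries.

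Between 1500 and 3000 bases the members lay farther from 0 than other genes of that length in KO replicates 1 and 2 and in every heterozygous library. The 17 members there had -0.24, 0.25 and 0.05 in KO libraries and -0.16, 0.08 and 0.07 in heterozygous libraries, beside -0.07, 0.07 and 0.07 in KO and -0.04, 0.03 and 0.00 in heterozygous libraries for 3361 genes. The 4 members above 3000 bases had medians of -0.13, 0.04 and 0.02 in KO libraries and 0.00, 0.06 and -0.04 in heterozygous libraries. Their median was lowest in KO replicate 1, where the median of all genes of that length was 0.09. As single genes only Psmd1 was lowest there. Psmd5 was lowest in heterozygous replicate 1, and Psme4 and Psmf1 in heterozygous replicate 3. The part of length in the pattern was not tested. The members varied within a genotype by a median SD of 0.226 log2 units, beside 0.225 for 8454 genes in the same range of CPM. That range ran from a mean of 10.6 to 400 CPM, and genes were not matched to the members by level within it. The SD of single members ran from 0.0798 for Psme4, which encodes a large nuclear activator on a long transcript, to 0.617 for Psmg3.

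The balance of the particles was compared as the log2 ratio of summed core CPM to summed regulatory CPM, base chaperones included. The sums cover 14 core and 20 regulatory genes and are not divided by transcript length. The level of the ratio is therefore not one of transcripts per subunit. By summed RPKM its mean was -0.30 in KO and -0.41 in heterozygous libraries, and by mean log2 CPM -0.38 and -0.48. In summed CPM the ratio was -1.09, -1.04 and -0.91 in KO libraries, against -1.22, -1.04 and -1.08 in heterozygous libraries. The mean was -1.01 ± 0.09 in KO and -1.11 ± 0.10 in heterozygous libraries (SD, n = 3 each), and the difference of 0.10 was about the size of the SD, with overlap. Without replicate 1 of both genotypes, left out after the data were seen, the difference was 0.08, the median log2 fold change was 0.17 for the core and 0.08 for the regulatory members, and 2 members (Psma2 and Psmg2, 4.65%) had an unadjusted p up to 0.05, beside 4.35% of all genes in that fit.

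**Figure D5:**
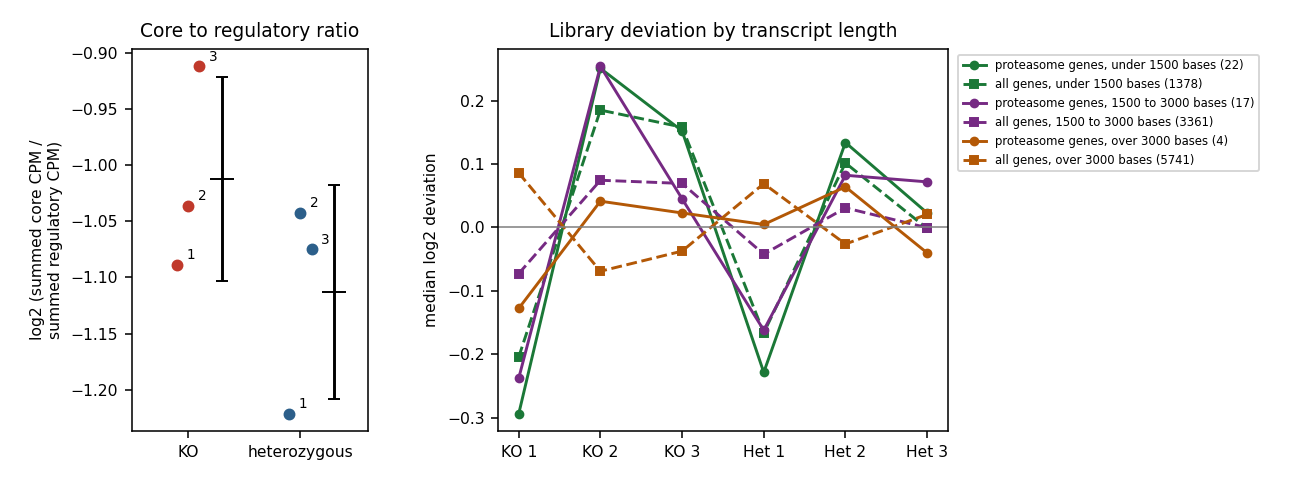
Left, log2 ratio of summed core to summed regulatory CPM (y axis) in each KO (red) and heterozygous (blue) library, numbered by replicate, with mean and SD of 3. Right, median log2 deviation per library (x axis) of proteasome genes (solid) and all tested genes (dashed) by principal transcript length; short genes are low in KO 1 (-0.20) and Het 1 (-0.17), all genes over 3000 bases are not, and the 4 proteasome genes of that length are at -0.13 in KO 1.

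Genes that work with the proteasome but fall outside the name rule did not pass the test either. Of 28 such genes, among them shuttle factors, the Pomp maturation factor and the Nrf1 gene Nfe2l1, all were tested, none had an unadjusted p up to 0.05, and 16 means were higher and 12 lower in KO (median log2 fold change 0.03). The smallest p belonged to Ddi2, the protease that activates Nrf1, with 279, 220 and 349 counts in KO libraries, against 428, 288 and 312 in heterozygous libraries (log2 fold change -0.26, SE 0.13, unadjusted p = 0.070 by edgeR). Nfe2l1 had 399, 278 and 444 counts in KO libraries, against 575, 293 and 318 in heterozygous libraries, with overlap in CPM.

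The core letters of the antioxidant response element, TGACNNNGC, to which Nrf1 family factors bind, were searched on both strands in the 250 bases before the start of each gene (RefSeq, GRCm38.p6). They were found for 5 of 40 members with a promoter sequence (12.5%), beside 11.5% of 27025 genes, a share near the background. The CCAAT box of NF-Y was found in 14 of 40 members (35.0%), beside 37.5% of genes. The 5 stretches with the response element core are shown because they are the members' only matches to the letters of the shared regulator. The motif is in capitals and each stretch reads 5′ to 3′ on the strand of its gene. A match is a description of letters and not a bound site.
Psmb5 (chr14:54618013-54618062, minus strand): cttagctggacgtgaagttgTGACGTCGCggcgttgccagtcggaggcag
Psmb6 (chr11:70525307-70525356, plus strand): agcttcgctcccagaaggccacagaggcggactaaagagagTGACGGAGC
Psmc6 (chr14:45329577-45329626, plus strand): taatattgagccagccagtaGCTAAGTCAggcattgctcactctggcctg
Psmd12 (chr11:107479278-107479327, plus strand): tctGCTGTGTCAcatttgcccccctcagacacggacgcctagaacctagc
Psmd9 (chr5:123228139-123228188, plus strand): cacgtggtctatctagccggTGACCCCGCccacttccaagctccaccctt

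In Psmb5, Psmb6 and Psmd9 the letters lie on the strand of the gene and within about 50 bases of its start, and in Psmc6 and Psmd12 they lie on the other strand and farther away. Their log2 fold changes were 0.28 (SE 0.26) for Psmb5, 0.04 (SE 0.17) for Psmb6, 0.14 (SE 0.17) for Psmc6, 0.05 (SE 0.14) for Psmd12 and -0.23 (SE 0.21) for Psmd9, each within about 1 SE of 0. For Psmd9 the RefSeq start used in the search lies inside the deposited gene span, which runs from base 123169412 to 123250131.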

How the data were processed

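Reporter-positive cells were sorted from thoracic walls, and libraries made with the SMARTer kit were run on a NextSeq-500. The authors mapped and counted reads in CLC against an Ensembl annotation. The study's methods name build mm10 and the submitters' processing notes mm9. The deposited gene spans overlap the GRCm38 gene for 47043 of 47102 genes matched by symbol and for all 48 members, so GRCm38 coordinates are given. The deposited counts per gene are whole numbers and were used for every main result. The RPKM values were made by the authors from reads and exon lengths and are not comparable between libraries without scaling, since their sums run from 179438 to 462951. The deposited columns of quantile-normalized and transformed values, fold changes and p-values, the list of genes chosen with them, and the mapping summary were not used.

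A minimum of 10 counts, reached in 3 or more libraries, left 10891 genes for edgeR 4.0.16 in R 4.3.3 (TMM, quasi-likelihood, genotype as the only term, biological coefficient of variation 0.173), with Benjamini-Hochberg adjustment over all of them and a threshold of 0.05. At 2088091 to 3525565 counts per library, genes of a few counts could not be tested. Alternatives were DESeq2 1.42.0, limma-voom (limma 3.58.1), library size alone, upper quartile factors, other count filters, log2 RPKM with a pseudocount of 1 or 0.1, a replicate block, and omission of single libraries. Scaled RPKM, length classes and leaving out replicate 1 of both genotypes were added after the data were seen. Transcript lengths are from GENCODE M21 and promoters from RefSeq. Members and lists were chosen with earlier results of these data known. Counts in every library are given for members with an unadjusted p up to 0.05, for the member of highest RPKM and of largest change in each role, for immune and tissue-restricted subunits with their partners, for members below the minimum, and for the gene of smallest p in each list. Psmd1, Psmc3, Psmd13 and Psmg3 also share some exon bases with other genes.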

Additional observations from a re-analysis of the deposited data

How the results depend on the processing

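No member passed adjustment under any alternative. Over all genes, the count passing adjustment (0) became 38 with no count filter, 5 and 1 with unscaled RPKM at pseudocounts of 0.1 and 1, 2 with the replicate block, and 0 to 1 when 1 library was left out. The count of members with an unadjusted p up to 0.05 (1, Psma2, beside 2.15% of all genes) was 2 with upper quartile factors (2.21% of all genes), 2 with scaled RPKM (2.57%), 2 with the replicate block (Psma1 and Psma2; 4.53%), 2 without replicate 1 of both genotypes (4.35%) and 0 with unscaled RPKM at pseudocounts of 0.1 (0.56%) and 1 (0.652%). Leaving out 1 library gave 0 to 5: 5 without KO replicate 1 (Psma1, Psma2, Psma5, Psmb1 and Psmb7, 11.6% of members beside 7.01% of all genes), 0 without KO replicate 2 (3.34%) or 3 (1.22%), only Psmg2 without heterozygous replicate 1, only Psma1 without heterozygous replicate 2 and only Psma2 without heterozygous replicate 3. Psmc5 turned to -0.0027 without KO replicate 2, and Psmf1 to 0.013 without replicate 1 of both genotypes. The cause was not tested.

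Leave-one-out medians ran from 0.04 to 0.29 for the core and from -0.10 to 0.14 for the regulatory members, and the difference in log2 core to regulatory ratio from 0.05 to 0.14. With the replicate block the core median was 0.12 and the regulatory median 0.04. Same-numbered libraries deviated together with correlations of 0.43, 0.19 and 0.01, so the numbers were not taken to pair the samples. With unscaled RPKM the regulatory median was -0.0078 and -0.0053 at pseudocounts of 0.1 and 1.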

Other observations

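Ubb and Rps27a, from the list of genes that work with the proteasome, had KO replicate 1 and heterozygous replicate 1 as their lowest libraries, as 27 of the 43 tested members did. They were chosen after their values were seen. Ubb, a polyubiquitin gene, had 712, 1087 and 1106 CPM in KO libraries, against 761, 1061 and 933 CPM in heterozygous libraries. Rps27a, which encodes ubiquitin fused to a ribosomal protein, had 380, 678 and 642 CPM in KO libraries, against 384, 672 and 505 CPM in heterozygous libraries. The highest library was KO replicate 3 for Ubb and KO replicate 2 for Rps27a. Uba1, the enzyme that activates ubiquitin, varied less, with 381, 391 and 424 CPM in KO libraries, against 382, 393 and 381 CPM in heterozygous libraries. None of these 3 genes had an unadjusted p up to 0.05 between genotypes by edgeR.

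Psmc3ip shares its first letters with the ATPase Psmc3 but lies outside the name rule, being a partner of recombination enzymes in meiosis. It had 133, 114 and 216 counts in KO libraries, against 138, 145 and 104 in heterozygous libraries. In these cells 2 of 4 germ cell markers had no count, and Ddx4 and Sycp3 were counted but stayed below the count minimum.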
